A study of Mus musculus with 12 samples.

Results

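The potassium channel genes of mouse, those whose symbol begins with Kcn, were followed in whole hypothalamus. A total of 94 such genes were found among the 78334 gene identifiers of the count table, by matching each Ensembl identifier to its mouse symbol, and they fall into 21 subfamilies by the letter after Kcn. One of these rows, Kcnq1ot1, is a long noncoding antisense RNA that carries the Kcnq letter and makes no channel. The 12 libraries came from male C57BL/6 mice in 4 groups.

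The curcumin group (3 libraries) received streptozotocin, a toxin of pancreatic beta cells, at 70 mg/kg on postnatal day 2, then from 3 weeks of age a high-fat diet with 60% of its energy as fat for 8 weeks, and curcumin by mouth at 50 mg/kg for 28 days. The garlic group (2 libraries) had the same toxin and diet and was given aged garlic extract at 200 mg/kg for 28 days. The diabetes group (4 libraries) had the toxin, the diet and vehicle. The control group (3 libraries) had standard chow and vehicle, and the labels record no toxin or vehicle injection for it, so effects of the injection and of the diet cannot be told apart. The sources differ on when treatment began. They do not state that libraries came from different animals, and all p-values therefore describe library-to-library spread that may be technical.

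Potassium channels let potassium ions pass along their gradient and so set the resting potential of a neuron, end its action potentials and govern how often it fires. Voltage-gated families (Kcna, Kcnb, Kcnc, Kcnd, Kcnq, Kcnh) open when the membrane depolarises, calcium- and sodium-activated families (Kcnma, Kcnn, Kcnt) respond to ions that enter during firing, tandem-pore channels (Kcnk) carry the resting leak, and inward rectifiers (Kcnj) pass current near rest or when G proteins release it. In the hypothalamus these currents shape the firing of neurons that govern feeding and hormone release, and glial inward rectifiers take up potassium from around active neurons.

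Library totals ran from 12950017 to 30271706 counts. Levels are CPM, counts relative to the library total after TMM scaling, and replicates are listed in the order of their numbers. Marker genes set 3 libraries apart. In curcumin replicate 2 the 11 hypothalamus markers summed to 9.88 CPM, against 535 to 4520 CPM in the other libraries, with Hmx2 and Hcrt at 0 and Nkx2-1, a transcription factor of hypothalamic neurons, at 0.0497 CPM, so its content goes against the labelled tissue. Its 7 thalamus and habenula markers summed to 427 CPM and its 6 oligodendrocyte markers to 11400 CPM, each the highest of all libraries. Tcf7l2 made 325 CPM of the thalamus and habenula sum. Tcf7l2, Lef1, Tnnt1 and Pou4f1 were highest in this library, while Prkcd and Rgs16 were not. Tac2, at 1.89 CPM, was lower there than in any other library. Diabetes replicate 4 held 862 CPM of the 6 pituitary markers and 1750 CPM of the 5 blood markers, and control replicate 3 held 563 CPM of the 6 astrocyte markers, against 1570 to 2880 CPM elsewhere.

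Promoters are shown for 3 genes to which the results return: Kcnma1 and Kcne1l, on opposite sides of the diabetes comparison, and Kcnj10, the channel gene with most reads per kilobase. RefSeq promoter entries (GRCm38.p6) matched 70 of the 94 genes by symbol, and the 250 bases before the listed start are printed, 5′ to 3′ on the strand of the gene. The Kcnma1 window is chr14:24004206-24004455, minus strand, the Kcne1l window chrX:142306199-142306448, minus strand, and the Kcnj10 window chr1:172340960-172341209, plus strand. Capitals mark GC boxes, the letters GGGCGG on either strand.
Kcnma1: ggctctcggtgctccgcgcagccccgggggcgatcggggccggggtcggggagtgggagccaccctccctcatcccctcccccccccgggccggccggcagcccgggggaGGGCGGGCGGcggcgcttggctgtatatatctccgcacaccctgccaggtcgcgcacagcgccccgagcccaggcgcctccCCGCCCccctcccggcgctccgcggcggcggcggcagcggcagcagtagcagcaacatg
Kcne1l: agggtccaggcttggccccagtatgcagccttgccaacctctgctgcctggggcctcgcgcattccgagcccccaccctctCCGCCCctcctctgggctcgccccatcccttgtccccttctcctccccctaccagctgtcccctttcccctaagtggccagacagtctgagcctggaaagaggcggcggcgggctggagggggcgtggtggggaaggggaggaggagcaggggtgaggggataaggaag
Kcnj10: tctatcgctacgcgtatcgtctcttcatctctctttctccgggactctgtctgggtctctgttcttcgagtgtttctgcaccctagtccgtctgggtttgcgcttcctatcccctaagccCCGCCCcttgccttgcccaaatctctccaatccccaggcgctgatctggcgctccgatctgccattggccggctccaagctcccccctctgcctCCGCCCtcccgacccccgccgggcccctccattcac
The Kcnma1 window is 79.2% G and C with 3 GC boxes, 2 of them overlapping, the Kcne1l window is 68.0% G and C with 1 box, and the Kcnj10 window is 62.0% with 2 boxes. A GC box stood in 34 of the 70 windows (48.6%), against 32.9% of the 27025 promoters of the same length. The letters TGANTCA, an AP-1 site, were in 3 of the 70 windows (Kcne3, Kcnip3 and Kcnip4; 4.29%), against 6.87% of all promoters. TATAAA was in 2 (Kcnj13 and Kcnj9; 2.86%), against 13.0% of all promoters. A match is a description of letters and not evidence of a bound site.

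Most of the family was detected in this tissue. Averaged over the 12 libraries, 7 genes reached at least 100 CPM, 44 lay between 10 and 100 CPM, 24 between 1 and 10 CPM and 19 under 1 CPM. Kcnj1, a kidney inward rectifier, had no counts in any library, and 7 genes in all were too low to test, so 87 entered the fits beside 25562 genes in all. Per kilobase of exon, the level of Kcnj10, the main inward rectifier of astrocytes, was 54.0 ± 18.4 CPM per kb (SD over 12 libraries), followed by Kcnab2, a cytoplasmic beta subunit of Kcna channels, at 39.1 ± 17.1 CPM per kb. Next came Kcnc4, a fast voltage-gated channel, at 25.6, Kcnt1, a sodium-activated channel, at 23.7, Kcnc1 at 21.8 and Kcnk1, a leak channel, at 20.7 CPM per kb. In this order of levels no neighbours differed by more than the larger of their SDs.

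All Kcn genes together summed to 4162 ± 827 CPM in the curcumin libraries (SD, n = 3), 3459 ± 500 CPM in the garlic libraries (n = 2), 2878 ± 160 CPM in the diabetes libraries (n = 4) and 3394 ± 501 CPM in the control libraries (n = 3). The diabetes sums ran from 2707 to 3085 CPM and overlapped the control sums, 2872 to 3871 CPM. They lay below both garlic sums, 3813 and 3106 CPM, and below the curcumin sums, 4415, 4834 and 3238 CPM. These sums include Kcnq1ot1, which makes no channel, at 52.2 CPM in garlic replicate 2 and 27.0 CPM in diabetes replicate 1. Without it these libraries change order, and the diabetes and garlic sums overlap.

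**Figure D1:**
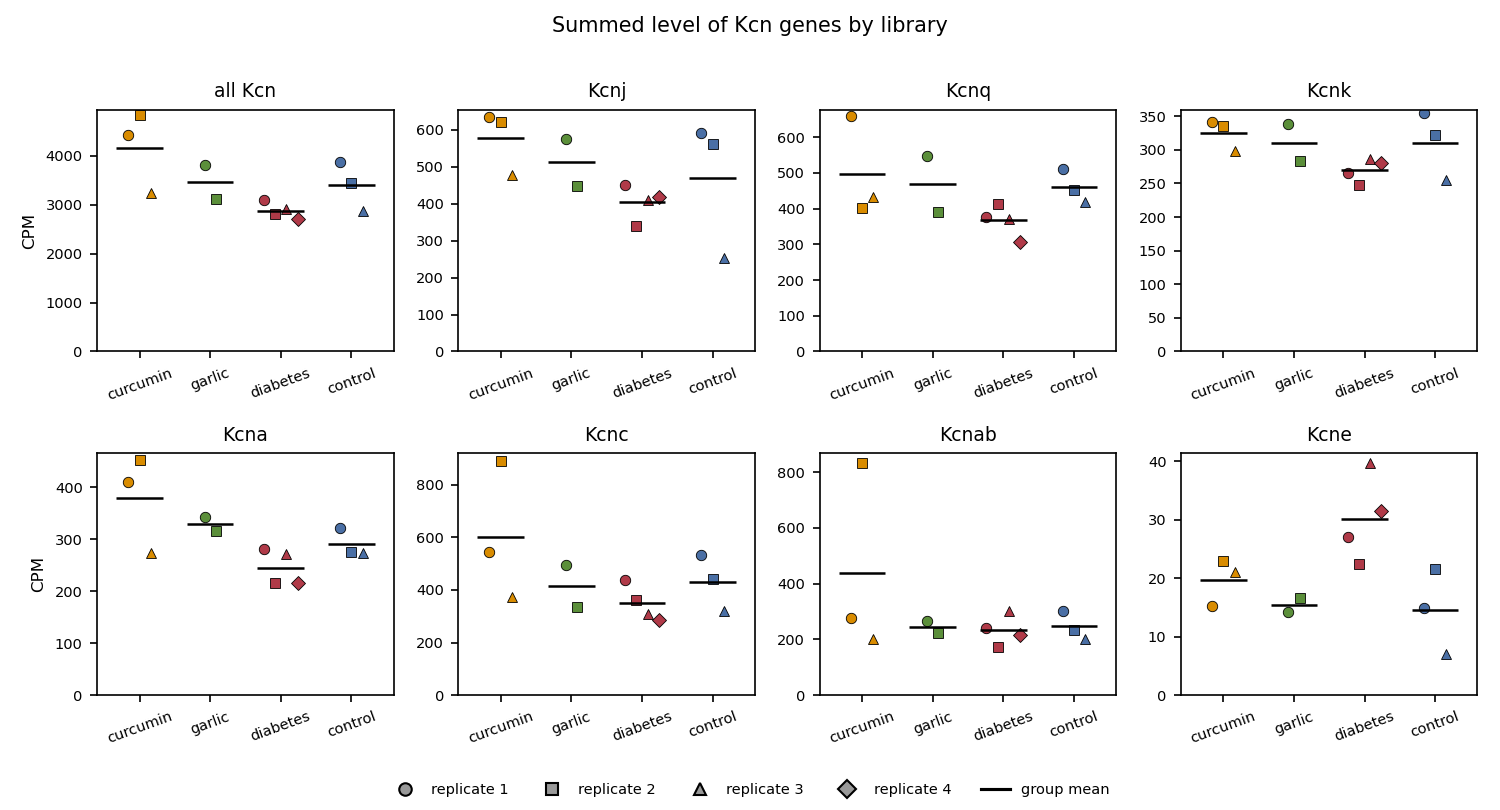
Summed CPM of all Kcn genes and of 7 subfamilies, with 1 point per library and a bar at the group mean. The diabetes sums of all Kcn genes, 2707 to 3085 CPM, lie below the curcumin and garlic sums and overlap the control sums. The gap to garlic depends on Kcnq1ot1, which makes no channel. The Kcne sum, most of it Kcne1l, is higher in diabetes than in garlic and control libraries. It overlaps curcumin, at 22.5 CPM in diabetes replicate 2 and 22.9 CPM in curcumin replicate 2. Curcumin replicate 2 stands far above the other libraries for Kcnab and Kcnc.

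Diabetes against control asks how the model itself shifts channel expression. By edgeR's quasi-likelihood test with Benjamini-Hochberg adjustment over all genes tested, 0 of the 87 genes passed at an adjusted p under 0.05, where 0.0156% of all genes passed. At an unadjusted p under 0.05, 1 gene was higher (Kcne1l; 1.15% of the family and 4.79% of all genes) and 7 were lower (Kcnc2, Kcnd1, Kcne2, Kcnip4, Kcnk9, Kcnma1 and Kcnq3; 8.05% of the family and 7.48% of all genes). DESeq2 called 0 (2.07% of all genes), and limma-voom with library weights called 5 (5.75% of the family and 4.6% of all genes), namely Kcnk9, Kcnma1, Kcnq3 and Kcnc2 lower and Kcne1l higher. The count of lower genes depended on the fit. It was 16 with only these groups in the fit (18.4%, against 10.8% of all genes), 14 without diabetes replicate 4 and curcumin replicate 2 (16.1%, against 9.43%), 14 by limma-voom (16.1%, against 15.6%), 11 without the filter on low counts (11.8%, against 5.08%) and 1 with a correction for transcript length (1.15%, against 4.06%). The count of higher genes was 0 without control replicate 3 (3.55% of all genes) and 5 with the number of detected genes as a covariate (5.75%, against 7.36%). At an adjusted p, without the filter on low counts edgeR called 1 gene, Kcnc2 (0.932% of all genes), and with only these groups in the fit it called 1, Kcnq3 (1.38% of all genes). The diabetes libraries all lay below the controls for 11 genes (12.6%, against 8.94% of all genes) and all above for 1 (1.15%, against 5.78%). The median log2 change of the 87 genes was -0.18, against -0.07 for all genes tested. The length correction turned these to 0.15 and 0.22, limma-voom gave -0.40 and -0.32, and without control replicate 3 they were -0.32 and -0.047.

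Marker sums and the number of detected genes separated these groups as well. The 8 neuron markers, none at 0 in any library, summed to 4040 to 5750 CPM in the curcumin group, 4540 to 4900 CPM in the garlic group, 3800 to 4280 CPM in the diabetes group and 4510 to 4970 CPM in the control group, so that diabetes and control did not overlap. That gap rests on part of the list. Snap25, Syt1, Map2 and Elavl4 were lower in every diabetes than in every control library, while Rbfox3, Eno2, Syp and Stmn2 overlapped. Syp ran from 705 to 1060 CPM in diabetes and 738 to 877 CPM in control libraries. Of the 15 marker lists, 5 did not overlap between diabetes and control. The 11 hypothalamus markers summed to 9.88 to 1460 CPM in curcumin and 928 to 2180 CPM in garlic libraries. They summed to 2090 to 4520 CPM in diabetes and 1450 to 2030 CPM in control libraries, so that diabetes was above curcumin and control. Of the genes in this list, only Pomc did not overlap between diabetes and control, at 171 to 1090 CPM and 50.3 to 68.7 CPM. Without Pomc the sums of these groups overlap. Blood markers summed to 264 to 1750 CPM in diabetes and 87.5 to 196 CPM in control libraries, thalamus and habenula markers to 81.8 to 126 CPM and 140 to 281 CPM in these groups, and the 5 striatum markers to 105 to 155 CPM and 92.7 to 104 CPM. Of these, 1 thalamus and habenula marker was at 0 in each diabetes library and in 1 control library, and none of the others was at 0 in these groups. At the depth of the smallest library, 20723 to 27900 genes would be detected in curcumin, 31568 to 33519 in garlic, 19941 to 22348 in diabetes and 25447 to 31638 in control libraries, with diabetes below garlic and control without overlap. Beyond the fits with detected genes as a covariate, their part in the channel results was not tested. As that number did not overlap between diabetes and control or garlic, those fits can hardly tell it apart from the group. In whole tissue, fewer cells of a type and less RNA per cell cannot be told apart. As a share of the neuron marker sum, a measure chosen after seeing the data, all Kcn genes came to 67.9 to 79.7% in diabetes and 59.8 to 77.9% in control libraries. The share was 80.2 to 102% in curcumin libraries, just above diabetes, and 68.4 to 77.8% in garlic libraries.

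Among the M-current genes, Kcnq3 had the smallest p. This gene, a subunit of the slow M-current that restrains repetitive firing, measured 133, 60.9 and 65.0 CPM in the curcumin libraries, 103 and 60.9 CPM in the garlic libraries, 51.1, 44.5, 38.0 and 43.0 CPM in the diabetes libraries, and 89.2, 81.4 and 65.6 CPM in the control libraries. Every diabetes library lay below every library of the other groups. The log2 change was -0.83 ± 0.27 (SE) for diabetes against control, with an adjusted p of 0.273 by edgeR. It was 0.96 ± 0.27 for curcumin against diabetes (adjusted p = 0.116) and 0.89 ± 0.30 for garlic against diabetes (adjusted p = 0.348). The curcumin change was 1.19 without curcumin replicate 2, with an adjusted p of 0.0129. That was the largest of 18 alternative fits, which gave 0.40 to 1.19 and called the gene in 5. For diabetes against control they gave -1.35 to -0.34 and called it in 2. Kcnq3 has 14708 exon bases, against a median of 4239.5 for the family. With the length correction it missed the unadjusted threshold in the diabetes, curcumin and garlic comparisons above. Relative to the neuron marker sum, Kcnq3 stood at 0.889 to 1.32% in diabetes and 1.37 to 1.80% in control libraries, so these groups stayed apart, while the curcumin libraries, at 1.06 to 3.07%, overlapped diabetes and the garlic libraries stood at 1.34 to 2.10%. Kcnq5, a further M-current subunit, ranged from 12.3 to 29.9 CPM in diabetes and 14.3 to 25.1 CPM in control libraries.

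The leak channel with the smallest p was Kcnk9, an acid-sensitive tandem-pore channel. It measured 156, 120 and 119 CPM in the curcumin libraries, 152 and 102 CPM in the garlic libraries, 79.2, 77.6, 59.2 and 77.7 CPM in the diabetes libraries, and 150, 129 and 87.2 CPM in the control libraries. Diabetes libraries were the lowest in each comparison, without overlap. The log2 change was -0.73 ± 0.23 for diabetes against control (adjusted p = 0.250), 0.84 ± 0.23 for curcumin against diabetes (adjusted p = 0.109) and 0.79 ± 0.26 for garlic against diabetes (adjusted p = 0.315). Over the alternative fits these changes ran from -0.93 to -0.26, 0.38 to 0.96 and 0.27 to 1.05. Kcnk9 has 12300 exon bases, and with the length correction it missed the unadjusted threshold in each of these comparisons. Set against the neuron marker sum, its share was 1.38 to 2.05% in diabetes and 1.82 to 3.01% in control libraries, which overlapped. It was 2.09 to 3.61% in curcumin and 2.24 to 3.11% in garlic libraries, above diabetes, with a narrow gap to curcumin. Among the other leak channels with high counts, Kcnk2, a stretch-sensitive channel, had a log2 change of -0.06 ± 0.22 for diabetes against control, Kcnk3, the nearest relative of Kcnk9, 0.10 ± 0.22 and Kcnk1 0.20 ± 0.33. Kcnk3 measured 39.6 and 36.5 CPM in the garlic libraries, below the diabetes libraries at 42.8 to 50.5 CPM, and Kcnk1 ran from 23.9 to 66.0 CPM within diabetes. Kcnk12, a tandem-pore subunit, had 3.79, 15.6 and 2.08 CPM in the curcumin libraries, 6.29 and 4.37 CPM in the garlic libraries, 8.20, 17.4, 18.9 and 16.4 CPM in the diabetes libraries, and 8.48, 10.4 and 4.94 CPM in the control libraries. Here diabetes was high, above both garlic libraries and overlapping the others.

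Kcnma1, the pore of the large-conductance calcium-activated BK channel that shortens action potentials, measured 115, 57.2 and 89.4 CPM in the curcumin libraries, 125 and 78.1 CPM in the garlic libraries, 55.5, 69.7, 39.2 and 63.4 CPM in the diabetes libraries, and 124, 90.9 and 88.6 CPM in the control libraries. The diabetes libraries lay below the control and garlic libraries and overlapped the curcumin libraries through curcumin replicate 2. For diabetes against control the log2 change was -0.83 ± 0.27 (adjusted p = 0.265), and for garlic against diabetes it was 0.84 ± 0.30 (adjusted p = 0.361). Over the alternative fits these changes ran from -1.10 to -0.32 and 0.26 to 1.23. Kcnma1 has 16976 exon bases, and with the length correction it missed the unadjusted threshold in both comparisons. As a share of neuron markers it stood at 0.915 to 1.83% in diabetes and 1.84 to 2.49% in control libraries, a gap at the last digit. The garlic libraries, at 1.72 to 2.56%, and the curcumin libraries, at 0.995 to 2.67%, overlapped diabetes on this measure. Its beta subunit of neurons, Kcnmb4, which slows the channel, had 2.13, 1.29 and 5.05 CPM in the curcumin libraries, 5.36 and 6.48 CPM in the garlic libraries, 10.8, 6.25, 7.66 and 9.20 CPM in the diabetes libraries, and 5.53, 5.58 and 7.71 CPM in the control libraries. All 3 curcumin libraries were below every diabetes library, with a log2 change of -1.58 ± 0.55 and an adjusted p of 0.175. Kcnmb4 shares 31.5% of its exon bases with a gene on the opposite strand, and the strand setting of the counting is not given in the sources used here.

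Small-conductance calcium-activated channels underlie the pause after a spike. Kcnn3 had 74.2, 11.8 and 34.7 CPM in the curcumin libraries, 45.8 and 29.5 CPM in the garlic libraries, 31.4, 28.3, 16.2 and 28.4 CPM in the diabetes libraries, and 48.2, 41.7 and 37.4 CPM in the control libraries. Diabetes lay below control without overlap, with a log2 change of -0.70 ± 0.40 and an adjusted p of 0.531. Kcnn2 ran from 15.0 to 19.6 CPM in diabetes and 9.34 to 16.9 CPM in control libraries. The sodium-activated channel Kcnt1 was high and variable, at 133 to 298 CPM in diabetes and 196 to 279 CPM in control libraries.

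Kcnc channels close fast and let neurons fire at high rates. Kcnc2 measured 58.2, 145 and 48.5 CPM in the curcumin libraries, 83.7 and 68.3 CPM in the garlic libraries, 60.6, 30.8, 47.9 and 40.9 CPM in the diabetes libraries, and 110, 69.3 and 71.9 CPM in the control libraries. Its diabetes libraries were below the control and garlic libraries, with a log2 change against control of -0.89 ± 0.33 and an adjusted p of 0.316. With the number of detected genes as a covariate that change turned to 0.17 (adjusted p = 0.944 by edgeR), where the covariate did not overlap between these groups. As a share of the neuron marker sum Kcnc2 stood at 0.810 to 1.57% in diabetes and 1.5 to 2.21% in control libraries, which overlapped. Kcnc1, the most abundant of the subfamily by CPM, had a log2 change of -0.22 ± 0.25 in the same comparison, and Kcnc4 of -0.18 ± 0.25.

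Kcna channels sit along axons, where they limit excitability. Kcna2 had 201, 326 and 125 CPM in the curcumin libraries, 174 and 178 CPM in the garlic libraries, 147, 101, 123 and 116 CPM in the diabetes libraries, and 172, 142 and 146 CPM in the control libraries. Both garlic libraries were above every diabetes and control library. The garlic change against diabetes was 0.53 ± 0.29 on the log2 scale, and the adjusted p was 0.555. Kcna1, its close relative, was uneven within groups, from 0 to 14.9 CPM in diabetes and 1.22 to 16.8 CPM in control libraries. Kcna6, with the highest level of the subfamily per kilobase, shares 39.6% of its exon bases with an opposite-strand gene and had a log2 change of -0.18 ± 0.19 for diabetes against control.

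Kcnd channels and their Kcnip calcium-binding subunits carry the A-type current that delays the next spike. Kcnd1 had 19.4, 16 and 17.0 CPM in the curcumin libraries, 11.7 and 14.7 CPM in the garlic libraries, 8.12, 4.90, 11.0 and 11.5 CPM in the diabetes libraries, and 12.4, 14.8 and 20.0 CPM in the control libraries. The diabetes libraries were the lowest in each comparison, with a log2 change of -0.83 ± 0.34 against control (adjusted p = 0.355) and 0.98 ± 0.34 for curcumin against diabetes (adjusted p = 0.178). Kcnd2, the more abundant relative, ran from 47.5 to 67.7 CPM in diabetes and 55.7 to 83.0 CPM in control libraries. Kcnip4 had 51.5, 53.0 and 60.9 CPM in the curcumin libraries, 63.5 and 79.3 CPM in the garlic libraries, 46.4, 45.2, 52.6 and 59.6 CPM in the diabetes libraries, and 71.0, 60.4 and 81.5 CPM in the control libraries. Diabetes lay below control and garlic without overlap and overlapped curcumin. Its log2 change was -0.48 ± 0.21 for diabetes against control, with an adjusted p of 0.371. As shares of the neuron marker sum both overlapped, Kcnd1 at 0.129 to 0.302% in diabetes and 0.251 to 0.416% in control libraries and Kcnip4 at 1.19 to 1.57% and 1.34 to 1.70% in these groups. Kcnip1 differed by -0.05 ± 0.23 and Kcnip3 by 0.01 ± 0.25 in the same comparison.

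Accessory Kcne subunits, small proteins that alter the gating of voltage-gated channels, held the gene that was higher in diabetes. Kcne1l, also named Kcne5, is on the X chromosome and measured 13.5, 21.2 and 15.0 CPM in the curcumin libraries, 12.4 and 14.6 CPM in the garlic libraries, 26.2, 21.9, 37.0 and 29.2 CPM in the diabetes libraries, and 13.5, 21.2 and 6.07 CPM in the control libraries. The diabetes libraries lay above all others, with a narrow gap to curcumin replicate 2 and control replicate 2. The log2 change was 1.07 ± 0.37 for diabetes against control (adjusted p = 0.292), -0.78 ± 0.36 for curcumin against diabetes (adjusted p = 0.279) and -1.08 ± 0.43 for garlic against diabetes (adjusted p = 0.392). Without control replicate 3, which had the lowest level, the change against control was 0.72 (adjusted p = 0.504) and no longer past an unadjusted p of 0.05. Kcne1l has 1543 exon bases. With the length correction diabetes against control and garlic against diabetes stayed past that unadjusted p, and curcumin against diabetes did not. As a share of the neuron marker sum the diabetes libraries stood at 0.577 to 0.864% and the control libraries at 0.127 to 0.469%.

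Kcne2, a subunit abundant in choroid plexus, had 0, 11 and 105 counts in the curcumin libraries, 5 and 11 in the garlic libraries, 0 in each of the 4 diabetes libraries, and 11, 6 and 12 in the control libraries. Taking 3 counts over the diabetes group as the floor, and for counting error only, diabetes was at least 11.6-fold lower than control. Curcumin was at least 48.4-fold higher than diabetes, nearly all of it from replicate 3, and garlic at least 9.86-fold higher. The 6 choroid plexus markers summed to 30.6 to 41.3 CPM in the curcumin group, 28.4 to 34.2 CPM in the garlic group, 31.7 to 40.1 CPM in the diabetes group and 15.1 to 46.4 CPM in the control group, so that they overlapped. In curcumin replicate 1, 4 of these markers were at 0, and Clic6 (33.7 CPM) and Kl (7.67 CPM) made the sum. Clic6 and Kl made most of the sum in the other libraries too, except curcumin replicate 2, where Otx2 (22.1 CPM) did. Ttr, Folr1 and Aqp1 reached at most 9.34, 4.65 and 2.25 CPM in any library, so the sums say little about these 3. A single marker was at 0 in each diabetes library, in curcumin replicate 3 and in garlic replicate 2, and none in the rest. The part of choroid plexus in the Kcne2 counts was not tested.

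**Figure D2:**
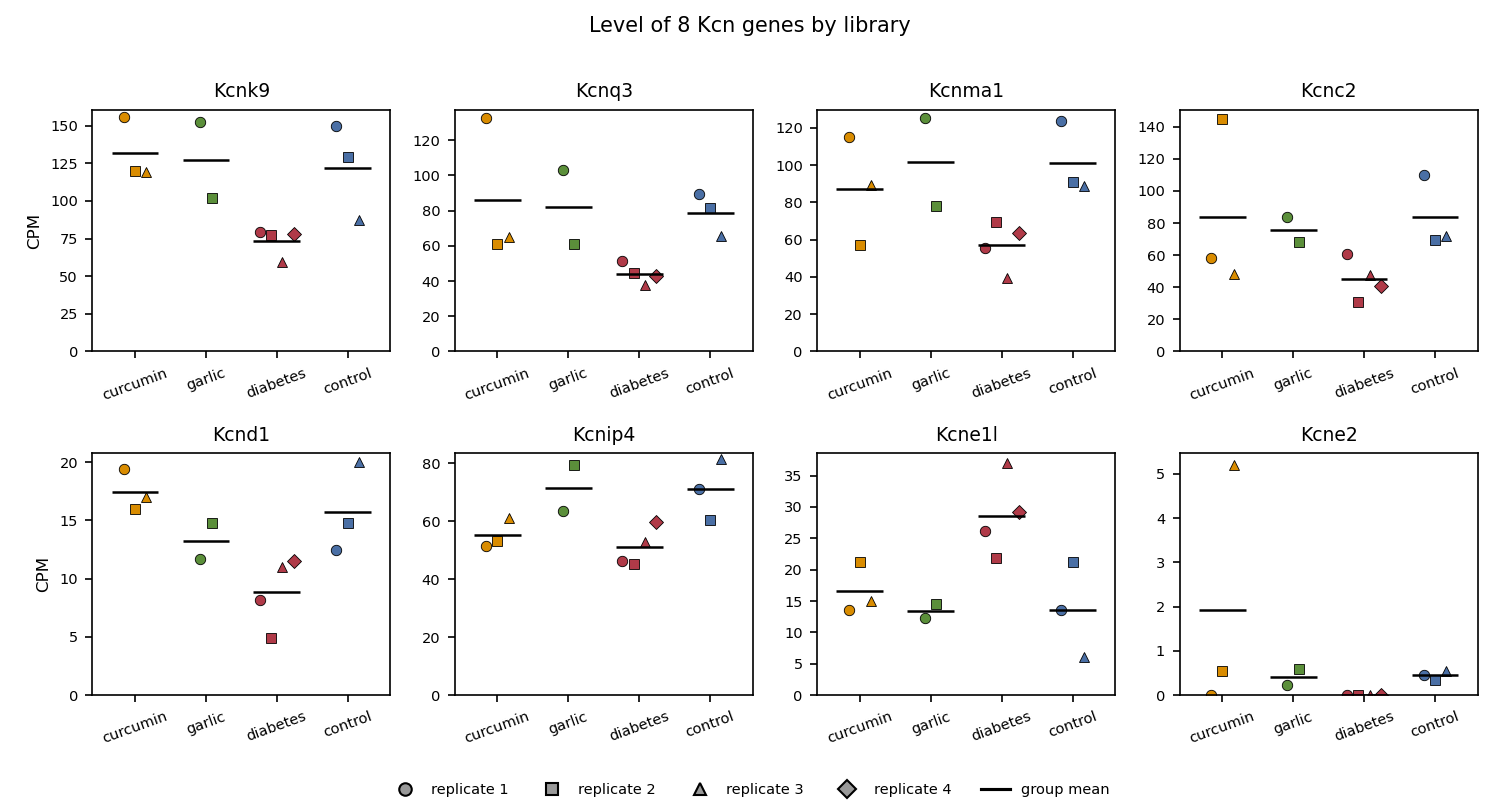
CPM of 8 Kcn genes, with 1 point per library and a bar at the group mean. Kcnk9 and Kcnq3 lie lower in the 4 diabetes libraries than in every other library, Kcne1l lies higher, and Kcne2 is at 0 in all 4 diabetes libraries.

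Both inward rectifiers of astrocytes were lowest in the library with the lowest astrocyte marker sum. Kcnj10 measured 458, 388 and 312 CPM in the curcumin libraries, 342 and 283 CPM in the garlic libraries, 288, 189, 208 and 243 CPM in the diabetes libraries, and 350, 355 and 87.8 CPM in the control libraries. The lowest value was in control replicate 3, which also had the lowest astrocyte marker sum. The 6 astrocyte markers, none at 0, summed to 2070 to 2880 CPM in the curcumin group, 1790 to 2490 CPM in the garlic group, 1570 to 1980 CPM in the diabetes group and 563 to 2380 CPM in the control group, and their part in the result was not tested. For diabetes against control the log2 change was -0.19 ± 0.34 with all libraries and -0.60 without control replicate 3, with 0.067 or 0.086 where either of the other controls was left out. Kcnj16, which joins Kcnj10 in glial channels, had 36.5, 40.4 and 28.0 CPM in the curcumin libraries, 45.2 and 43.2 CPM in the garlic libraries, 26.9, 38.0, 45.3 and 41.9 CPM in the diabetes libraries, and 39.7, 43.1 and 16.8 CPM in the control libraries. Here too the lowest value was in control replicate 3.

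**Figure D3:**
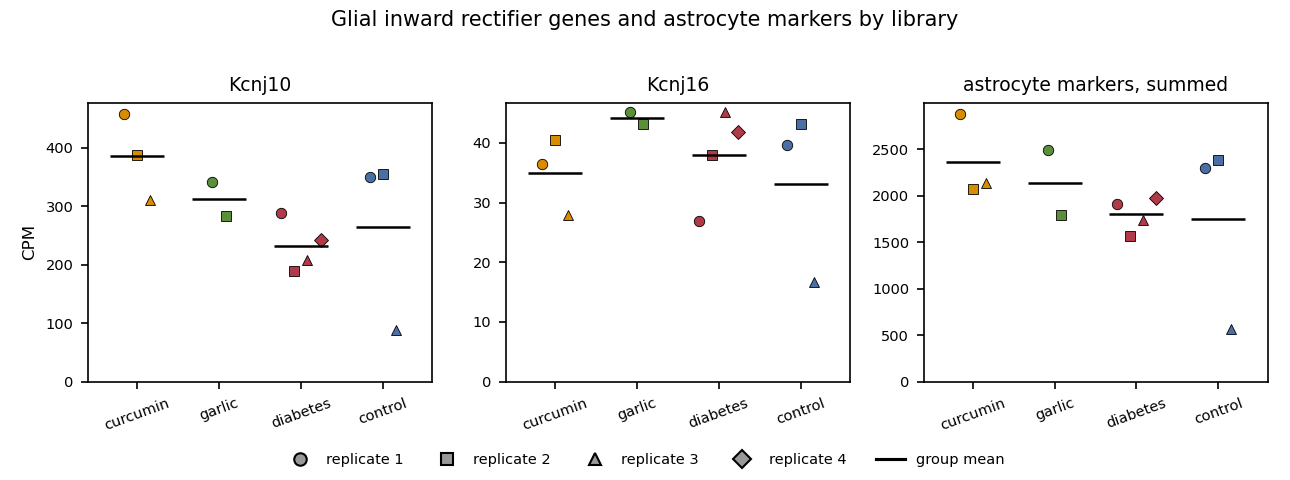
CPM of Kcnj10 and Kcnj16 and the summed CPM of 6 astrocyte markers, with 1 point per library and a bar at the group mean. Control replicate 3 is the lowest library in each panel, at 87.8 CPM, 16.8 CPM and 563 CPM.

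G-protein-gated inward rectifiers carry slow inhibition by transmitters. Kcnj3, a shared subunit, had 28.3, 57.5 and 23.6 CPM in the curcumin libraries, 42.6 and 41.1 CPM in the garlic libraries, 27.6, 27.8, 30.3 and 34.1 CPM in the diabetes libraries, and 43.8, 34.9 and 47.0 CPM in the control libraries. Kcnj9, another subunit, had 55.1, 45.1, 60.0 and 59.4 CPM in the diabetes libraries and 95.1, 67.9 and 63.0 CPM in the control libraries. Both were below control in every diabetes library, with log2 changes of -0.49 ± 0.28 and -0.46 ± 0.26 and adjusted p-values of 0.518 and 0.513 by edgeR. With detected genes as a covariate, which did not overlap between these groups, they turned to 0.30 and 0.060 (adjusted p = 0.855 and 0.982 by edgeR). Kcnj3 shares 31.1% of its exon bases with an opposite-strand gene. Kcnj6, a subunit of dopamine neurons among others, ranged from 1.39 to 22.7 CPM in the curcumin libraries, 0.362 to 4.20 CPM in the diabetes libraries and 1.27 to 9.40 CPM in the control libraries. Kcnj5 ran from 6.61 to 9.92 CPM in diabetes and 9.84 to 13.9 CPM in control libraries. Kcnj8, the pore of a vascular channel gated by ATP, ran from 1.14 to 13.1 CPM in diabetes and 4.70 to 4.85 CPM in control libraries. Kcnj13, an epithelial inward rectifier, reached at most 1.03 CPM in any library.

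Kcnh channels include the ERG type, which opposes burst firing. Kcnh2, the most abundant by level per kilobase, had a log2 change of -0.05 ± 0.25 for diabetes against control, and Kcnh7, a neuronal relative, of -0.37 ± 0.31. Kcnh4, a further member, was lower in every curcumin library than in every diabetes library, with curcumin values of 4.69, 2.38 and 4.91 CPM and diabetes values of 7.59, 15.0, 5.57 and 16.6 CPM. Its log2 change for curcumin against diabetes was -1.49 ± 0.51, with an adjusted p of 0.172. Subunits that form no channel on their own (Kcnf, Kcng, Kcns and Kcnv) were led by Kcnf1, with 22.9 to 50.7 CPM in diabetes and 27.0 to 47.0 CPM in control libraries, and Kcns2, with 9.77 to 22.1 CPM and 11.0 to 22.8 CPM in these groups. Kcng2 ran from 7.24 to 13.7 CPM in diabetes and 6.48 to 10.3 CPM in control libraries, and Kcnv1 from 0.620 to 5.83 CPM and 2.27 to 6.04 CPM. Kcnu1, a sperm channel, stayed between 0.852 and 4.26 CPM over the 12 libraries, and Kcnrg, a regulator of Kcna assembly, between 0 and 1.22 CPM. Kcnq1ot1, which lies antisense to Kcnq1, had 26.1 to 64.6 CPM in diabetes and 29.4 to 41.5 CPM in control libraries.

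Curcumin against diabetes asks what treatment did to channel expression within the model, and it shares the 4 diabetes libraries with the comparisons above. By edgeR, 0 of the 87 genes passed (0.09% of all genes), while 18 were higher at an unadjusted p under 0.05 (20.7%, against 10.5% of all genes) and 3 lower (3.45%, against 6.71%). The count of higher genes was 13 without diabetes replicate 4 and curcumin replicate 2 (14.9%, against 12.0%), 8 by limma-voom (9.2%, against 7.57%) and 7 with the length correction (8.05%, against 6.35%). The count of lower genes was 7 without curcumin replicate 2 (8.05%, against 12.2%) and 7 without curcumin replicate 1 (8.05%, against 3.96%). DESeq2 called 4 (Kcna2, Kcne2, Kcnk9 and Kcnq3, all higher; 4.6%, against 4.14% of all genes), and limma-voom called 0 (0.481% of all genes). Kcne2 had 0, 11 and 105 counts in the curcumin libraries, so its call rests mainly on replicate 3. Without the filter on low counts edgeR called 11 (11.8%, against 2.25% of all genes), and with detected genes as a covariate it called 1, Kcnq3 (1.75% of all genes). In 9 genes every curcumin library was above every diabetes library (10.3%, against 5.43% of all genes), among them Kcnd1, Kcnd3, Kcnh8, Kcnip1, Kcnj10, Kcnk9, Kcnmb2 and Kcnq3. In 4 every curcumin library was below (Kcne1l, Kcnh4, Kcnk6 and Kcnmb4; 4.6%, against 4.19%). The median log2 change was 0.30 for the family and 0.07 for all genes. With the length correction these were 0.063 and -0.081, and without curcumin replicate 3 they were 0.52 and 0.00. The astrocyte marker sums were higher and the hypothalamus marker sums lower in every curcumin library than in every diabetes library, and their part in these counts was not tested.

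Curcumin replicate 2, the library whose hypothalamus markers were near 0, decided several of these values. It had the highest level of 21 of the 75 genes that averaged at least 1 CPM (28.0%, against 11.5% of all genes at that level), and the lowest of 9 (5.66% of all genes). Kcnab3, a beta subunit of Kcna channels, had 11.0, 241 and 7.98 CPM in the curcumin libraries, 26.9 and 19.9 CPM in the garlic libraries, 10.3, 14.8, 15.0 and 17.7 CPM in the diabetes libraries, and 25.3, 21.9 and 17.1 CPM in the control libraries. Its log2 change of 2.59 ± 0.73 for curcumin against diabetes turned to -0.57 without that library, and 2.01 ± 0.79 for curcumin against control turned to -1.21. Kcng4, a silent subunit, had 5.16, 56.0 and 2.83 CPM in the curcumin libraries and 2.75, 0.958, 7.14 and 0 CPM in the diabetes libraries. Apart from replicate 2, the curcumin values of Kcnab3 and Kcng4 were within or near the diabetes range.

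**Figure D4:**
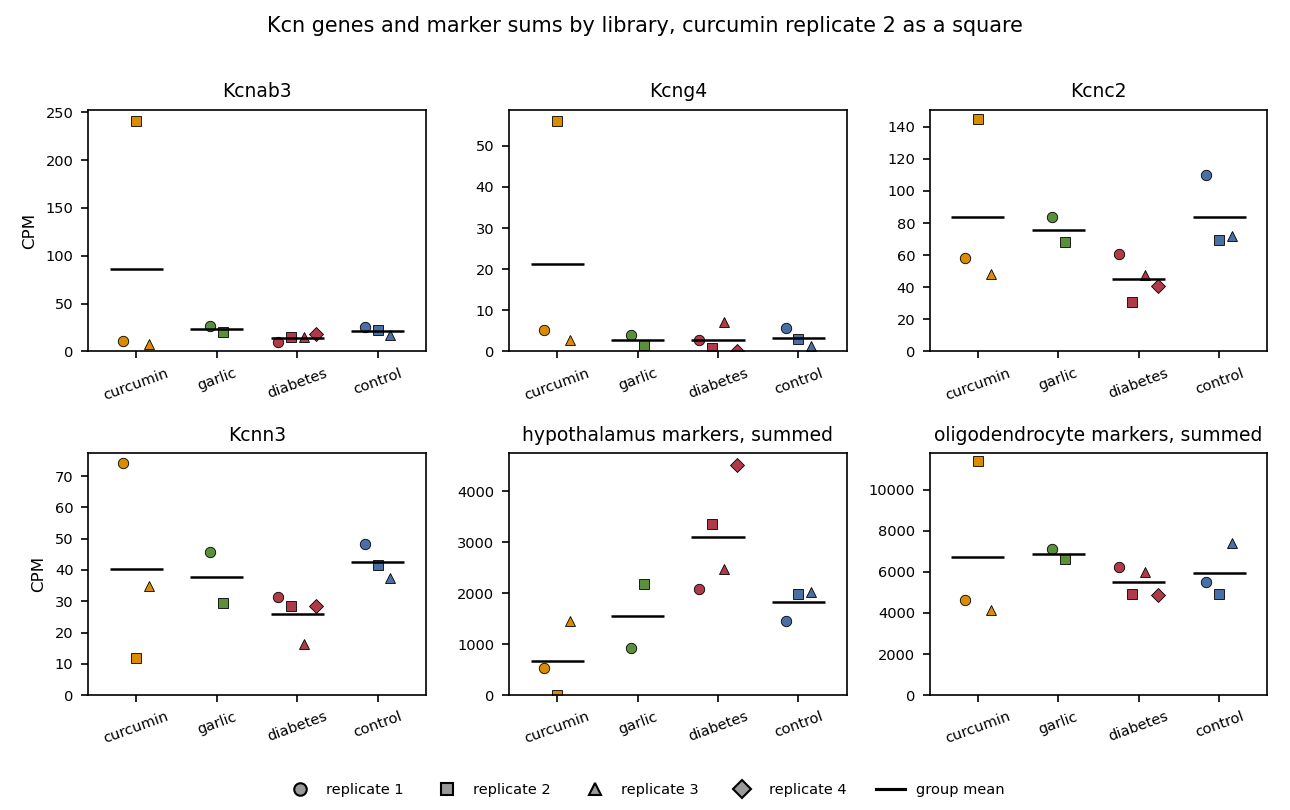
CPM of 4 Kcn genes and summed CPM of 11 hypothalamus and 6 oligodendrocyte markers, with 1 point per library and a bar at the group mean. Curcumin replicate 2, the orange square, is at 241 CPM for Kcnab3 and 56.0 CPM for Kcng4 and at 9.88 CPM for the hypothalamus markers.

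Without curcumin replicate 2, edgeR called 10 genes (11.5%, against 7.72% of all genes). Among those higher in curcumin were Kcnq3, Kcnd3 (an A-type channel), Kcnk9, Kcnj6, Kcnn3, Kcnh1, Kcne2 and Kcnma1, and Kcnk12 was lower. The Kcne2 call rests on curcumin replicate 3 alone, with 105 counts there and 0 in curcumin replicate 1. Kcnd3 had 96.8, 59.5 and 83.0 CPM in the curcumin libraries and 58.3, 45.7, 47.6 and 53.8 CPM in the diabetes libraries, and its log2 change was 0.64 ± 0.22 with all libraries and 0.84 without replicate 2 (adjusted p = 0.0197). Kcnk12 changed by -1.09 ± 0.57 with all libraries and by -2.34 without replicate 2 (adjusted p = 0.0165). Without diabetes replicate 4 and curcumin replicate 2 together, 4 were called (among them Kcnd3 and Kcnq3 higher and Kcnk12 lower; 4.6%, against 4.16% of all genes). These fits rest on 2 curcumin libraries. Curcumin replicate 1 had the next lowest hypothalamus marker sum (535 CPM), but its Nkx2-1 was at 47.7 CPM, against 0.0497 CPM in curcumin replicate 2. Curcumin replicate 1 had the highest level of 20 of the 75 genes (26.7%, against 20.2% of all genes). Without replicate 1, the Kcnn3 change turned to -0.17.

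Garlic against diabetes shares the same 4 diabetes libraries and rests on 2 garlic libraries. By edgeR, 0 of 87 genes passed (0.0% of all genes), with 6 higher at an unadjusted p under 0.05 (Kcne2, Kcnip4, Kcnk9, Kcnma1, Kcnq3 and Kcnt2; 6.9% of both the family and all genes) and 2 lower (Kcne1l and Kcnk12; 2.3%, against 4.03%). The count of higher genes was 12 without diabetes replicate 4 and curcumin replicate 2 (13.8%, against 9.23%), 2 without garlic replicate 1 (2.3%, against 2.77%) and 1 with the length correction (1.15%, against 3.7%). Oligodendrocyte marker sums were 6610 to 7090 CPM in garlic and 4870 to 6230 CPM in diabetes libraries, and blood marker sums 115 to 154 CPM and 264 to 1750 CPM in these groups, neither overlapping, and their part was not tested. DESeq2 and limma-voom each called 0 (1.69% and 1.68% of all genes). Both garlic libraries were above all diabetes libraries for 17 genes (19.5%, against 13.2% of all genes) and below for 3 (Kcne1l, Kcnk12 and Kcnk3; 3.45%, against 7.52%). Kcnt2, a sodium-activated channel, had 14.6 and 13.6 CPM in the garlic libraries and 9.01, 6.31, 5.22 and 5.94 CPM in the diabetes libraries, with a log2 change of 1.09 ± 0.47 and an adjusted p of 0.418. The family's median log2 change was 0.21, against 0.07 for all genes. The length correction turned these to -0.17 and -0.25. The family's median was -0.050 without garlic replicate 1, whose Kcn genes lay a median 0.26 above their mean over all libraries on the log2 scale, against -0.10 in garlic replicate 2.

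**Figure D5:**
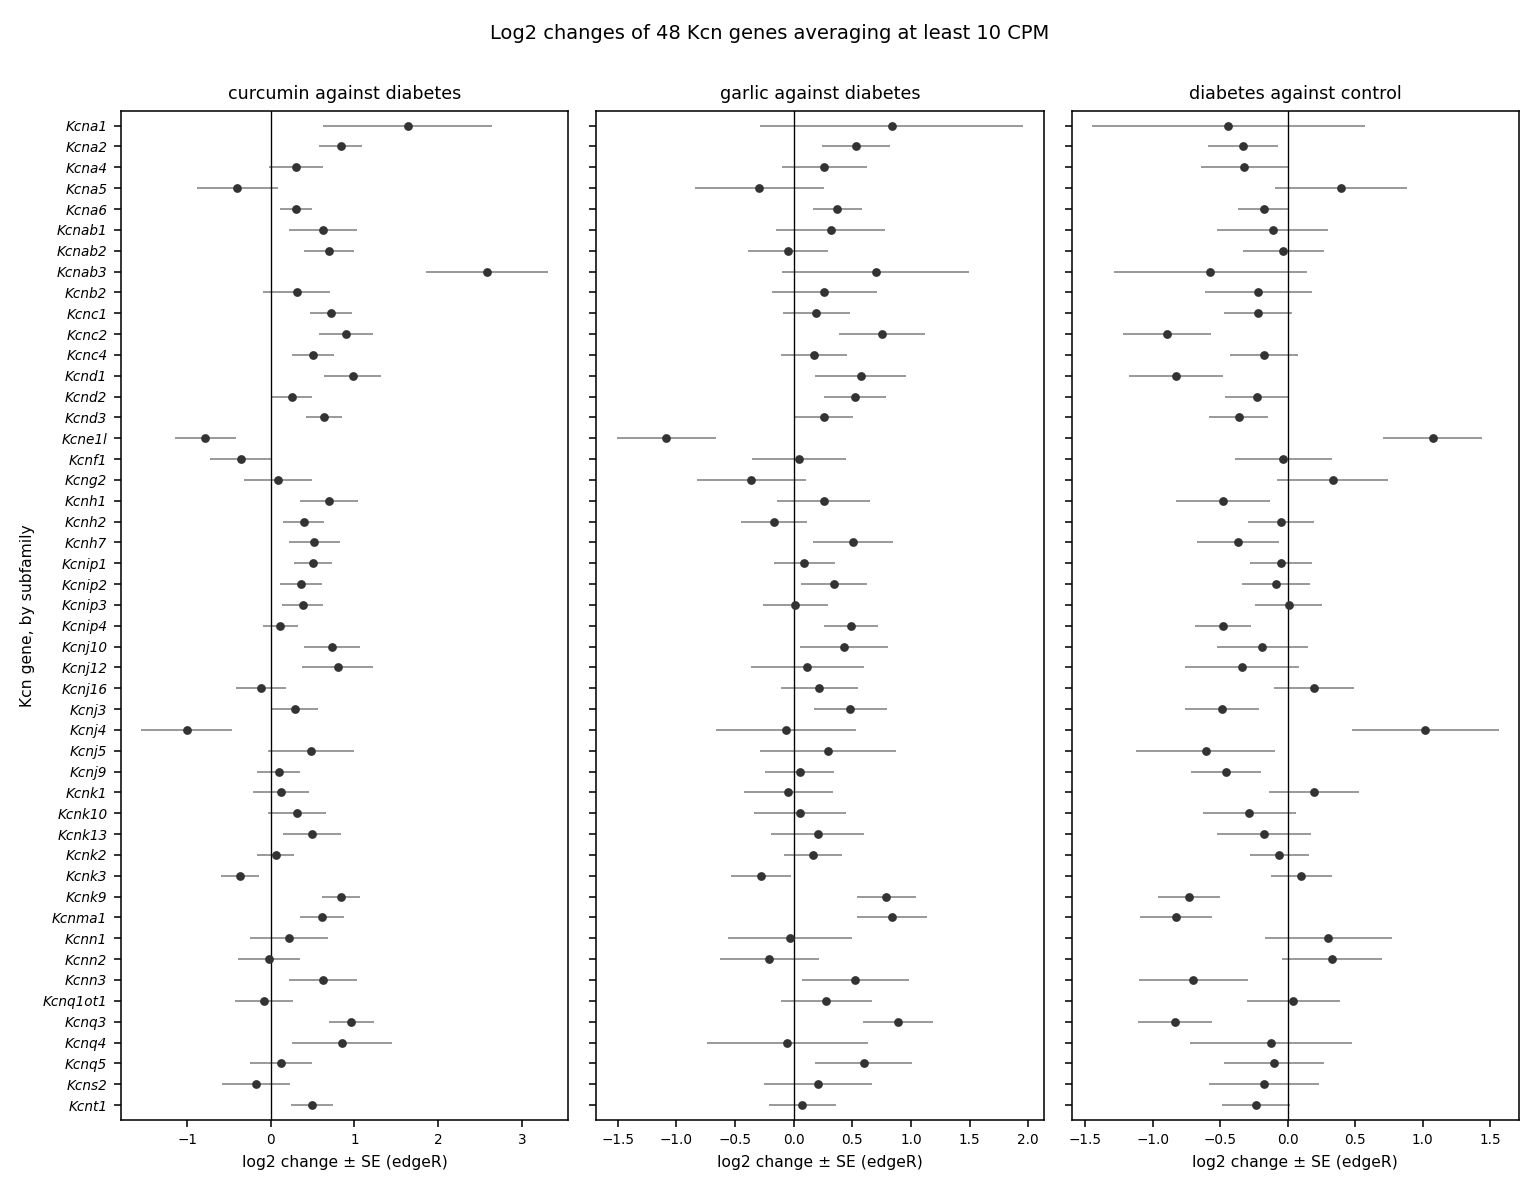
Log2 change ± SE by edgeR of 48 Kcn genes averaging at least 10 CPM, ordered by subfamily, for curcumin against diabetes, garlic against diabetes and diabetes against control. The panels have their own horizontal scales and share the diabetes libraries; Kcnk9, Kcnma1 and Kcnq3 lie left of 0 in the diabetes panel and right of 0 in both treatment panels, and Kcne1l lies on the other side in each.

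Against control, no Kcn gene passed in either treated group. For curcumin against control, edgeR called 0 of 87 genes (0.0% of all genes), with 3 higher at an unadjusted p under 0.05 (among them Kcnab3 and Kcng4; 3.45%, against 1.06%) and 0 lower (1.28%). DESeq2 called 0 (0.0196% of all genes) and limma-voom 0 (0.0% of all genes), and without the low-count filter edgeR called 2, Kcnab3 and Kcng4 (0.0856% of all genes). Without curcumin replicate 2, 0 genes were higher at that unadjusted p (1.38% of all genes) and 7 were lower (Kcnab3, Kcnc2, Kcnj3, Kcnj9, Kcnk12, Kcnn4 and Kcnq1; 8.05%, against 7.56%). The count of higher genes was also 0 without control replicate 3 (0.282% of all genes), and it was 8 with detected genes as a covariate (9.2%, against 1.47%). Kcnip1 was above control in every curcumin library (2.82% of all genes), with 93.2, 78.7 and 76.4 CPM in curcumin and 52.6, 58.5 and 70.0 CPM in control, and 5 genes were below control in every curcumin library (5.75%, against 5.84%). For garlic against control, edgeR called 0 (0.0% of all genes), with 0 at an unadjusted p under 0.05 in either direction (0.0782% of all genes higher and 0.0313% lower), and DESeq2 and limma-voom called 0 (0.0% of all genes each). Both garlic libraries were above control for 8 genes (9.2%, against 6.65% of all genes) and below for 3 (3.45%, against 6.11%). The median log2 change of the family was 0.12 for curcumin, turning to -0.15 by limma-voom, and -0.00 for garlic, with -0.20 without garlic replicate 1. Whether a treated group was closer to control than diabetes was not tested.

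Proteins that bind, cluster or resemble these channels were read from a list of 27 genes, of which 26 were tested. By edgeR, 0 passed in any of the 5 comparisons. At an unadjusted p under 0.05, 5 were lower and 0 higher in diabetes against control (19.2%, against 7.48% of all genes), 12 were higher and 0 lower in curcumin against diabetes (46.2%, against 10.5%), and 6 were higher and 0 lower in garlic against diabetes (23.1%, against 6.9%). For curcumin against control 2 were higher and 0 lower (7.69%, against 1.06%), and for garlic against control there were 0 in either direction. All of these counts come from the reported fit. Whether they hold with the length correction or without curcumin replicate 2 was not tested for this list. Neuron marker sums were lower in diabetes than in control and garlic libraries, and their part here was not tested either. Ank3, counted as higher, reached 604 CPM in curcumin replicate 1 but 240 CPM in replicate 2, while Epb41l3 stayed within 244 to 287 CPM over that group. The list's median log2 change was -0.31, 0.57 and 0.35 in the comparisons with diabetes libraries, in that order, against -0.07, 0.07 and 0.07 for all genes. Epb41l3, a scaffold at the axonal sites where Kcna channels gather, averaged 268 CPM in curcumin, 250.2 CPM in garlic, 145 CPM in diabetes and 239 CPM in control libraries, with a log2 change of -0.72 for diabetes against control (adjusted p = 0.201) and 0.89 for curcumin against diabetes (adjusted p = 0.0703). Adam22, which anchors Kcna complexes, averaged 238 CPM in curcumin, 207 CPM in garlic, 133 CPM in diabetes and 222 CPM in control libraries, with a log2 change of -0.74 for diabetes against control (adjusted p = 0.280). Hcn2, a pacemaker channel of a related family, lay on the other side of 0, averaging 217 CPM in diabetes and 140 CPM in control libraries, with a log2 change of 0.63 and an adjusted p of 0.411. Abcc8, the sulphonylurea receptor of channels gated by ATP, averaged 19.1 CPM in diabetes and 29.0 CPM in control libraries (log2 change -0.61, adjusted p = 0.406). The genes named here were chosen after their values were seen.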

How the data were processed

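The authors deposited raw read counts per gene for bulk hypothalamus, made per the submitters' processing notes with FastQC, featureCounts and GRCm39. Per the labels' protocols, libraries were stranded and poly-A selected. Not given in the sources used here are the aligner, annotation release, strand setting and handling of multiply mapped reads, so paralogs and overlapping genes are uncertain. Of 78334 Ensembl identifiers, 65.7% matched a symbol in GENCODE M21, which also gave exon lengths. From the 99 rows beginning with Kcn, names holding os, -ps or Rik and a further gene were left out, and some genes that enter the fits, counts and sums are not reported here by name.

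Genes were kept with filterByExpr by group, scaled by TMM and fitted in R 4.3.3 with edgeR 4.0.16 (glmQLFit, glmQLFTest, two-sided), with all 12 libraries in 1 model of 4 groups and Benjamini-Hochberg adjustment over 25562 genes at 0.05. The fit was tested on simulated data. Standard errors are the log2 change divided by the root of F. The biological coefficient of variation was 0.808. Alternatives used RLE scaling, other filters, DESeq2 1.42.0, limma 3.58.1 (voom with library weights), robust spread, only the groups compared, a covariate for detected genes, a transcript-length correction, a replicate block, and left-out libraries.

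Genes and lists were chosen with earlier results of these data known. Named genes are, among those averaging at least 1 CPM, the 6 of smallest p in each direction in the comparisons with diabetes libraries and the 3 in the others, the highest per kilobase in each subfamily, genes at 0 in a group, and a list of well-known channels; others were added after their values were seen. Chi-square tests found no library deposited more than once (at least 20.0 per degree of freedom).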

Additional observations from a re-analysis of the deposited data

Results flagged for a closer look

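Among 30 named genes and 22 subfamily sums examined in the 4 diabetes libraries, 2 held a library far from the rest, where chance flags about 1 in 20. Kcnk9 was 59.2 CPM in diabetes replicate 3, below the other diabetes libraries at 77.6 to 79.2 CPM. The Kcnrg sum, which is 1 gene, was 1.22 CPM in diabetes replicate 3 and 0 in the other 3.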

How the results depend on the processing

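Calls by edgeR depended on the filter, the tool and single libraries. For diabetes against control, 0 genes were called in the reported fit, 1 without the filter on low counts, 1 with only those groups in the fit and 5 by limma-voom. For curcumin against diabetes the count was 0 in the reported fit, 11 without the filter, 4 by DESeq2, 1 with detected genes as a covariate and 4 without diabetes replicate 4 and curcumin replicate 2, and it ran from 0 to 10 when libraries were left out in turn, reaching 10 without curcumin replicate 2. For curcumin against control it was 2 without the filter. The unfiltered fit tests more genes, and the cause of the other changes was not tested.

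Of the log2 changes of named genes, these turned sign. For diabetes against control, with detected genes as a covariate, Kcnc2 was 0.17, Kcnj3 0.30 and Kcnj9 0.060, and with the length correction Kcnj10 was 0.15 and Kcnd3 0.062. For garlic against diabetes under that covariate, Kcnc2 was -0.83, Kcnh4 0.056 and Kcnmb4 0.80, and for garlic against control Kcnj6 was 0.12. Without diabetes replicate 4 and curcumin replicate 2, Kcnab3 was -0.46 for curcumin against diabetes and -1.21 for curcumin against control, where limma-voom gave Kcnab3 as -0.29. Leaving out libraries in turn, Kcnj10 ran from -0.60 to 0.086 and Kcnj16 from -0.12 to 0.43 for diabetes against control, Kcnab3 from -0.57 to 3.13 and Kcnn3 from -0.17 to 1.09 for curcumin against diabetes, Kcnab3 from -1.21 to 2.55 for curcumin against control, and Kcnj4 from -0.29 to 1.62 for garlic against control.

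The 15 same-numbered pairs of libraries correlated at -0.179 to 0.252, with 4 over 0.1, each of them with a garlic library. Different-numbered pairs ran from -0.366 to 0.366. These are correlations of deviations from group means, in which the garlic libraries mirror each other, so they cannot decide whether replicate numbers pair the libraries. With the replicate number as a block, 0 genes were called in each of the 5 comparisons. The 19 genes averaging under 1 CPM rest on few counts.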
